A study of Mus musculus with 6 samples.

Results

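The palate patterning transcription factors described here are *Osr1*, *Osr2*, *Shox2*, *Meox2*, *Tbx22*, *Barx1*, *Mn1*, *Tbx2* and *Tbx3*. These 9 genes were taken by name from the deposited expression table of 38553 genes, and each name had 1 entry. RNA-Seq had been performed on craniofacial tissue dissected from E12.5 mouse embryos, 3 controls and 3 *Rbfox2* mutants. The controls were *Rbfox2* flox/flox without Cre and the mutants were *Pax3*Cre/+:*Rbfox2* flox/flox, so every embryo carried floxed *Rbfox2* alleles and the mutants alone carried Cre. *Pax3*Cre is a knock-in at the *Pax3* locus that acts in neural crest and in mesodermal derivatives, and the mice had a mixed background. The loss of *Rbfox2* and the *Pax3*Cre allele therefore cannot be told apart in these groups.

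The secondary palate grows from paired shelves of neural crest-derived mesenchyme covered by epithelium, which first hang beside the tongue, then rise above it and fuse. The mesenchyme of the shelves is regionalised by transcription factors before any change of shape is seen. *Shox2*, a homeodomain factor, marks the anterior shelf. *Meox2* and *Barx1*, also homeodomain factors, the T-box repressor *Tbx22* and the transcriptional coregulator *Mn1* are associated with its posterior part. The zinc finger factors *Osr1* and *Osr2* act along the mediolateral axis, and *Osr2* is needed for shelf growth. *Tbx2* and *Tbx3* encode closely related T-box repressors of facial, limb and heart mesenchyme.

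Rbfox proteins bind the RNA element UGCAUG, and the places where this element stands in the spliced transcripts of the 9 genes are shown because the deleted gene encodes such a protein. The DNA letters TGCATG were searched on the sense strand of the longest protein coding transcript of each gene in GENCODE release M21 (GRCm38), and introns were not searched. At least 1 match was found in 6 of the 9 genes, or 66.7%, and in 55.7% of 9771 tested genes with such a transcript. The density was 0.224 sites per kilobase in the 9 genes and 0.281 in the tested genes, so the palate factors carried no more of these letters per length than other genes. *Osr1*, *Osr2* and *Barx1*, with transcripts of 2012, 1724 and 1399 bases, held none. The 7 matches follow in windows of 30 bases, 5′ to 3′ on the transcribed strand, with the element in capitals. A match is a description of letters, and binding was not measured here.
Tbx22, coding region, chrX:107681166-107681195, plus strand: acaacccccgtgTGCATGtggtggaacagg
Tbx22, 3′ UTR, chrX:107687734-107687763, plus strand: caaaaatttataTGCATGctaacaacaaat
Tbx3, 3′ UTR, chr5:119683724-119683753, plus strand: tggcttctttttTGCATGttacagttttct
Tbx2, coding region, chr11:85838201-85838230, plus strand: tctccagccaccTGCATGggcagcagttct
Mn1, coding region, chr5:111418416-111418445, plus strand: aggcgcagcctgTGCATGgcttcttcggcg
Shox2, 3′ UTR, chr3:66972673-66972702, minus strand: tcaattctggttTGCATGttactagtattc
Meox2, 5′ UTR, chr12:37108811-37108840, plus strand: gaagccgaaactTGCATGccatggaacacc

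The values are FPKM, fragments per kilobase of gene and scaled to the number of mapped fragments, so levels can be set side by side between genes. Comparisons were made on log2(FPKM + 1), and log2 fold changes, mutant minus control, are on that scale, which understates the change of low genes. FPKM summed to 528123 to 590174 per sample, and the number of fragments behind a single value is unknown. *Rbfox2*, the targeted gene, was at 61.6 ± 3.29 FPKM in the 3 controls (mean ± SD) against 36.2 ± 1.87 in the 3 mutants, and every mutant value was below every control value. *Pax3* was at 8.83, 11.9 and 11.1 FPKM in control replicates 1, 2 and 3 and at 8.62, 7.59 and 8.36 in the mutants, also without overlap. Replicate 1 of either group was separated from the other samples, at -19.1 and -17.0 on the first principal component of the tested genes against 7.55 or more elsewhere. In the tissue, 10 of 10 cranial mesenchyme markers and 10 of 10 neuronal markers were over the expression filter, so the samples are mixed, and fewer cells of a type cannot be told apart from less RNA per cell. Y-linked genes were expressed in mutant replicates 1 and 2 and in no other sample.

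All 9 palate factors were detected in every sample. *Barx1* was the most abundant, with a mean of 44.8 FPKM over the 6 samples, followed by *Osr1* at 34.5. *Tbx2* at 24.3, *Osr2* at 24.3, *Mn1* at 22.2 and *Shox2* at 19.4 formed a middle group whose sample ranges overlapped from each gene to the next. *Barx1* was above *Osr1*, and *Osr1* above *Tbx2*, in 6 of 6 samples, although their ranges over samples also overlapped. *Tbx3* was lower, at 11.04 FPKM, and its range of 8.82 to 13.8 overlapped neither that of *Shox2* nor that of *Tbx22*. *Tbx22* at 3.74 and *Meox2* at 3.65 were the least abundant and did not differ beyond their spread. *Barx1* exceeded 90.4% of all genes with a value above 0, and *Meox2* exceeded 51.7%.

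**Figure D1:**
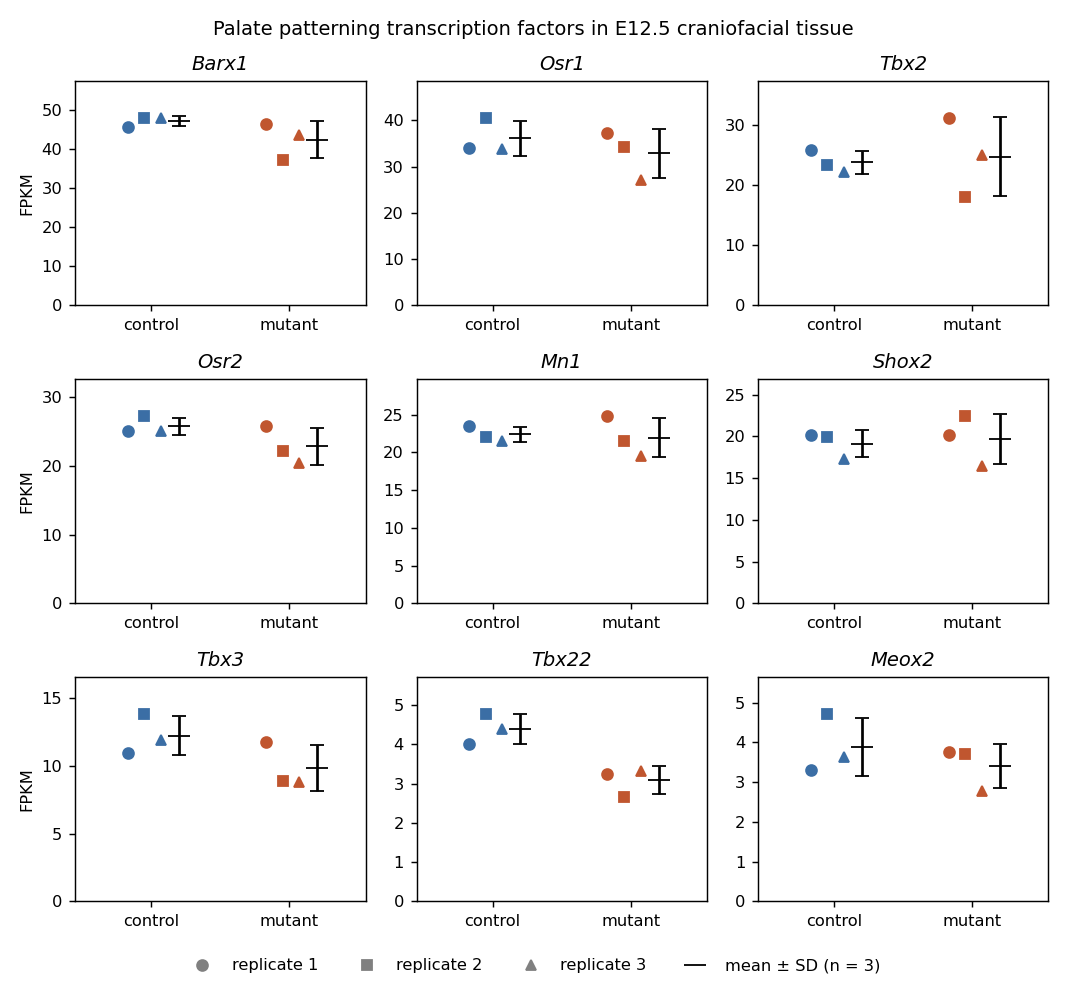
FPKM of the 9 palate factors in each control and mutant sample, ordered by mean level, with the y axis starting at 0, marker shapes for replicate numbers and bars for mean ± SD (n = 3). The 3 *Tbx22* values of the mutants lie below the 3 control values, and the groups overlap for the other 8 genes.

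None of the 9 genes passed an adjusted p of 0.05 in limma, and the same held for each of the 10061 genes kept by an expression filter, which asked for more than 5 FPKM throughout the control group or throughout the mutant group (0.00% called). Of the 9 genes, 7 passed this filter. *Tbx22* and *Meox2* did not, and they were tested in a fit of the 23063 genes with a value above 0 in at least 1 sample, where also 0.00% had an adjusted p under 0.05. In the filtered fit even *Rbfox2*, the targeted gene, had an adjusted p of 0.138 (limma), so the lack of a call does not show the lack of a difference. At an unadjusted p under 0.05, limma called 167 genes, or 1.66%, in the filtered fit, with 0.954% lower and 0.706% higher in the mutants. Without the filter it called 663 genes, or 2.87%, with 1.63% lower and 1.24% higher. *Tbx22* was the 1 palate factor among them, and none of the 7 genes in the filtered fit was. The mean difference was negative for 7 of the 9 genes, against 47.2% of the genes in the filtered fit and 51.0% without the filter. The median log2 fold change of the 9 was -0.14, against 0.0057 in the filtered fit. Blocked by replicate number, the filtered fit called 604 genes, or 6%, at an unadjusted p under 0.05, and none of the 7 palate factors in it. The blocked fit without the filter called 1221 genes, or 5.29%, among them *Tbx22* but not *Meox2*.

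*Tbx22* showed the largest difference of the 9. *Tbx22* (ENSMUSG00000031241) lies on the plus strand of the X chromosome of GRCm38 from 107667964 to 107688978 and is mutated in human X-linked cleft palate. Its FPKM was 4.01, 4.77 and 4.40 in control replicates 1, 2 and 3 and 3.26, 2.67 and 3.32 in mutant replicates 1, 2 and 3. The highest mutant value was thus below the lowest control value, which was so for 3.33% of the genes in the fit without the filter and 2.37% of those in the filtered fit. Groups that did not overlap in either direction made up 6.34% of the genes without the filter and 5% of those in the filtered fit. The mutant mean of *Tbx22*, 3.08 ± 0.359, was 70.2% of the control mean of 4.39 ± 0.379 (SD, n = 3 each; two-sided exact permutation test, p = 0.10, which 3 against 3 samples cannot go below). Its log2 fold change was -0.40, with a standard error of 0.12 and a 95% interval from -0.69 to -0.12 (limma, unadjusted p = 0.0135, adjusted p = 1).

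Since the groups did not overlap, *Tbx22* had to be lower in the mutant of each replicate number. The differences were -0.23, -0.65 and -0.32 for replicates 1, 2 and 3 on the log2 scale. *Tbx22* was the 1 palate factor of 9, or 11.1%, that was lower in every number, against 12.4% of the genes in the fit without the filter. Mutant replicate 3, the mutant without Y-linked expression, had 3.32 FPKM and, like the other mutants, lay below the 3 controls. The controls had no Y-linked expression either. Y-linked expression was seen in mutants only, and 1 sample cannot tell its part from that of genotype. In limma the unadjusted p of *Tbx22* was 0.121 with the Y-linked genes as a covariate and 0.0580 after scaling to the cranial mesenchyme markers. These fits gave log2 fold changes of -0.32 and -0.30.

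The region around the first annotated start of *Tbx22* is shown because this gene had the largest difference of the 9. RefSeq (GRCm38.p6) lists 3 start sites for *Tbx22*, at positions 107667964, 107676512 and 107679015 of the X chromosome, and values per gene cannot separate them. The 300 bases from chrX:107667714-107668013, plus strand, run from 250 bases before the first start to 50 bases into the transcript. No capitals appear, since the T-box core letters GGTGTGA were not found on either strand in any of the 3 windows of *Tbx22*. These letters are in 3.98% of 32851 RefSeq promoter windows of the same length.
Tbx22, first start site: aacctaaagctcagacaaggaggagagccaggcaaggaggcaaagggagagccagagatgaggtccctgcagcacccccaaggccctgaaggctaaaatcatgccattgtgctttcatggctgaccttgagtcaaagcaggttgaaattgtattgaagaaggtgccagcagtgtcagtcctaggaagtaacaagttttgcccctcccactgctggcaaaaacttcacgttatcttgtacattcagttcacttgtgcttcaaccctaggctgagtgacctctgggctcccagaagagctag

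The other factors of the posterior palate had smaller mean differences. *Barx1* (ENSMUSG00000021381, chromosome 13 from 48662998 to 48666507, plus strand) is expressed in posterior palatal and proximal jaw mesenchyme. Its FPKM was 45.7, 47.9 and 47.9 in controls against 46.4, 37.4 and 43.7 in mutants. The controls agreed closely, with a coefficient of variation of 2.73%, and mutant replicates 2 and 3 were below them while mutant replicate 1 was within their range. The log2 fold change of *Barx1* was -0.15 with a 95% interval from -0.38 to 0.073 (limma, adjusted p = 1).

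*Mn1* (ENSMUSG00000070576, chromosome 5 from 111417362 to 111457033, plus strand) is needed for growth of the middle and posterior shelf, where its loss in mice reduces *Tbx22*. *Mn1* had FPKM of 23.5, 22.1 and 21.6 in controls against 24.8, 21.6 and 19.6 in mutants. The mutants held both the highest and the lowest value, and the group means, 22.4 ± 1.01 and 21.98 ± 2.62 (SD, n = 3 each), differed by less than the spread. The 95% interval of its log2 fold change of -0.032 ran from -0.27 to 0.20, and the sign turned in 3 of the alternative fits.

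*Meox2* (ENSMUSG00000036144, chromosome 12 from 37108540 to 37179534, plus strand) had FPKM of 3.30, 4.71 and 3.64 in controls against 3.77, 3.70 and 2.77 in mutants. Control replicate 2 was the highest and mutant replicate 3 the lowest of the 6 samples, and the groups overlapped. The log2 fold change of *Meox2* was -0.14 with an interval from -0.53 to 0.24, and without control replicate 2 it was -0.026.

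The anterior factor *Shox2* (ENSMUSG00000027833, chromosome 3 from 66971727 to 66981771, minus strand) had FPKM of 20.2, 19.9 and 17.4 in controls against 20.2, 22.4 and 16.5 in mutants. The highest and the lowest value were both those of mutants. Its log2 fold change was 0.031 with an interval from -0.26 to 0.32, and it was negative with the Y-linked covariate and without control replicate 3 or mutant replicate 2. *Shox2* is overlapped on the opposite strand by *Rsrc1*, which was at 22.7 to 28.9 FPKM, and whether strand was used in the counting is not given in the sources used here.

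*Osr1* (ENSMUSG00000048387, chromosome 12 from 9570116 to 9581500, plus strand) and *Osr2* (ENSMUSG00000022330, chromosome 15 from 35296098 to 35303305, plus strand) were described together as the factors of the mediolateral axis. *Osr1* had FPKM of 34.0, 40.4 and 33.9 in controls against 37.3, 34.3 and 27.0 in mutants. *Osr2* had FPKM of 25.1, 27.2 and 24.997 in controls against 25.8, 22.1 and 20.5 in mutants. In both genes mutant replicate 1 was above control replicate 1 and mutant replicate 3 was the lowest sample.

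The log2 fold changes were -0.14 for *Osr1*, with an interval from -0.46 to 0.18, and -0.17 for *Osr2*, with an interval from -0.41 to 0.062. *Osr1* moved to -0.0088 without mutant replicate 3. With the Y-linked genes as a covariate, *Osr1* was at -0.40 and *Osr2* at -0.32 (limma, unadjusted p = 0.0293 and 0.0497, adjusted p = 0.999 for both). These were the 2 palate factors with an unadjusted p under 0.05 with that covariate, in a fit where 176 of 10061 genes had one. The genotype estimate there depends on 1 mutant sample, so it cannot set genotype apart from that sample. *Osr2* was at -0.26 without mutant replicate 1 (limma, unadjusted p = 0.0206, adjusted p = 0.906), in a fit where 414 of 10148 genes had an unadjusted p under 0.05. The ratio of *Osr1* to *Osr2* was 1.40 ± 0.0762 in controls against 1.44 ± 0.115 in mutants (SD, n = 3 each; two-sided exact permutation test, p = 0.70, adjusted over 2 pairs 0.70), so the balance between the paralogs differed by less than its spread.

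*Tbx3* (ENSMUSG00000018604, chromosome 5 from 119670669 to 119684724, plus strand) came next to *Tbx22* in the size of the difference. Its FPKM was 10.97, 13.8 and 11.9 in controls against 11.8, 8.88 and 8.82 in mutants. Mutant replicates 2 and 3 were below every control, while mutant replicate 1 was above control replicate 1. The mutant mean was 80.3% of the control mean, and the log2 fold change was -0.30 with a 95% interval from -0.61 to 0.021 (limma, unadjusted p = 0.0631). Without mutant replicate 1 it was -0.42 (limma, unadjusted p = 0.00945, adjusted p = 0.906), in a fit where 414 of 10148 genes had an unadjusted p under 0.05. Without control replicate 1 it was -0.37 (limma, unadjusted p = 0.0385, adjusted p = 0.709), in a fit where 690 of 10224 genes did. Without control replicate 2 it was -0.21 (limma, unadjusted p = 0.191). *Tbx3* is overlapped on the opposite strand by the noncoding gene *Tbx3os1*, which was at 5.87 to 7.15 FPKM in controls and at 8.95, 6.55 and 5.52 in mutants, so reads of the pair may not be separated.

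*Tbx2* (ENSMUSG00000000093, chromosome 11 from 85832551 to 85841948, plus strand), the paralog of *Tbx3*, had FPKM of 25.9, 23.3 and 22.3 in controls against 31.1, 18.001 and 25.1 in mutants. Its mutant values spread over a range that took in all controls, with a coefficient of variation of 26.5% against 7.92% in controls. The log2 fold change was 0.022 with an interval from -0.41 to 0.45, and it was 0.22 without mutant replicate 2 and -0.15 without mutant replicate 1. The ratio of *Tbx2* to *Tbx3* was 2.36, 1.69 and 1.86 in controls against 2.64, 2.03 and 2.85 in mutants, higher in the mutant of each replicate number. The groups overlapped (exact permutation test, two-sided, 3 samples against 3, p = 0.20, adjusted over 2 pairs 0.40).

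**Figure D2:**
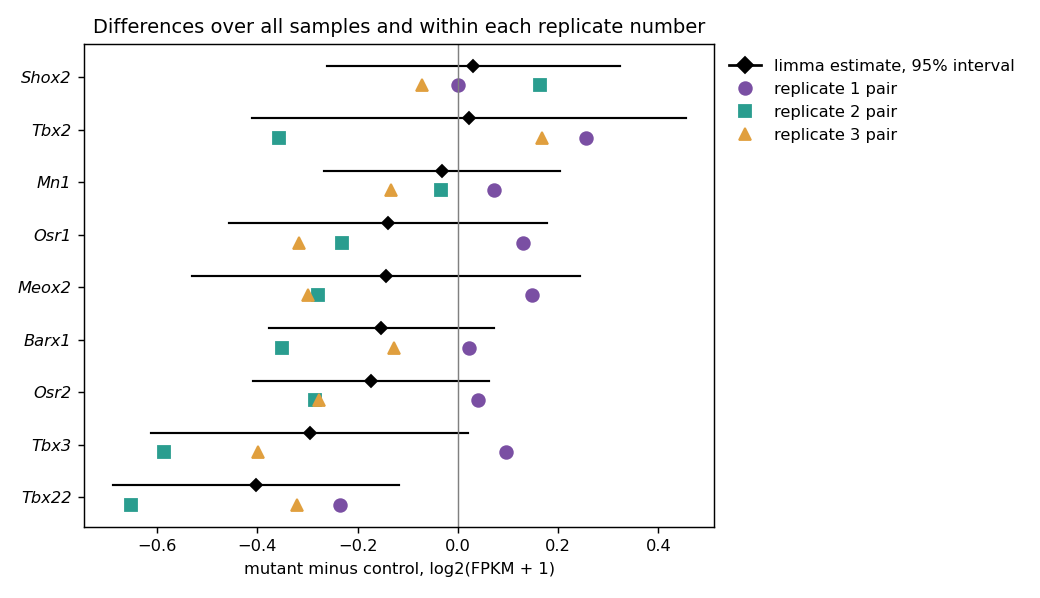
Mutant minus control differences of the 9 palate factors on the log2(FPKM + 1) scale, with the limma estimate and its 95% interval as a diamond and line and the difference within each replicate number as coloured symbols. *Tbx22* has the 1 interval that lies wholly below 0, and the replicate 1 symbols lie at or above 0 for the other 8 genes.

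The number of genes lower in the mutant differed between the replicate numbers. Between the first replicates, 8 of the 9 were higher in the mutant, although *Shox2* differed there by only 0.00012 on the log2 scale. In replicate 2, 8 of the 9 were lower in the mutant, with *Shox2* as the exception, and in replicate 3, 8 of the 9 were lower, with *Tbx2* as the exception. The median difference of the 9 genes was 0.072, -0.28 and -0.28 in replicates 1, 2 and 3. Over the 10061 genes of the filtered fit, the share lower in the mutant was 54.6%, 48.4% and 44.2% in the same order. In a fit of replicates 2 and 3 alone with the filter, *Tbx3*, *Osr2* and *Barx1* had an unadjusted p under 0.05 in limma, as had 1130 of 10258 genes, or 11%. Their log2 fold changes there were -0.49, -0.28 and -0.24, and the adjusted p-values were 0.331, 0.400 and 0.425. Without the filter, the same samples gave an unadjusted p under 0.05 for *Tbx22*, at a log2 fold change of -0.49 and an adjusted p of 0.625, as for 1775 of 22402 genes, or 7.92%. The pairing by number is not given by the labels. In its deviation from the group mean, mutant replicate 2 correlated more with control replicate 3 than with control replicate 2. The first replicates are 1 sample a group, so the difference between the numbers was not tested.

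The variation within groups differed as well. The coefficient of variation was larger in the mutants than in the controls for 8 of the 9 genes, all but *Meox2*, against 49.97% of the genes in the filtered fit. In controls it ran from 2.73% for *Barx1* to 18.8% for *Meox2*, and in mutants from 10.9% for *Barx1* to 26.5% for *Tbx2*. The 9 genes were measured in the same samples, so they are not 9 separate observations. The mutants also mixed samples with and without Y-linked expression, while no control had it, and the cause was not tested.

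Markers of the cranial mesenchyme followed a like course over the numbers. Between the first replicates 1 of 10 markers was lower in the mutant, in replicate 2 all 10 were and in replicate 3 there were 9. The summed FPKM of the 10 markers was 933, 1298 and 1093 in controls against 978, 1038 and 935 in mutants, and 1 of them, *Col1a1*, had an unadjusted p under 0.05. The summed FPKM of the 9 palate factors was 193, 204 and 188 in controls against 204, 171 and 167 in mutants.

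Of the marker lists of other cell types, the neuronal list had sums that separated the genotypes, and those of the 7 other lists overlapped. The 10 neuronal markers summed to 747 to 817 FPKM in controls and to 884 to 972 in mutants, without overlap, and 4 of the 10 had an unadjusted p under 0.05, all higher in the mutants. Skeletal muscle markers summed to 165 to 447 FPKM in controls and 160 to 250 in mutants, and of these 8 markers *Myf6* was under 1 FPKM in every sample. Epithelial markers summed to 131 to 226 and 131 to 178 FPKM, and forebrain progenitor markers to 146 to 306 and 230 to 249. Cartilage markers summed to 178 to 255 and 181 to 234 FPKM, endothelial markers to 80.1 to 110 and 85.5 to 100, and choroid plexus markers to 14.5 to 88.9 and 46.9 to 96.6. Of the erythroid markers, 6 of 8 were found by name and summed to 5055 to 10179 FPKM in controls and 6922 to 10405 in mutants. The part of the tissue's make-up in the values of the palate factors was not tested. When each sample was scaled to its mesenchyme markers, the median over all genes moved from 0.0057 to 0.13 on the log2 scale. *Tbx22* was then at -0.30 and *Tbx3* at -0.18, while *Osr1*, *Osr2*, *Barx1* and *Meox2* lay between -0.049 and -0.013. *Mn1*, *Tbx2* and *Shox2* were at 0.092, 0.15 and 0.15. The scaling divides all genes of a sample by 1 factor, so a rise of the palate factors along with the median was set in advance.

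**Figure D3:**
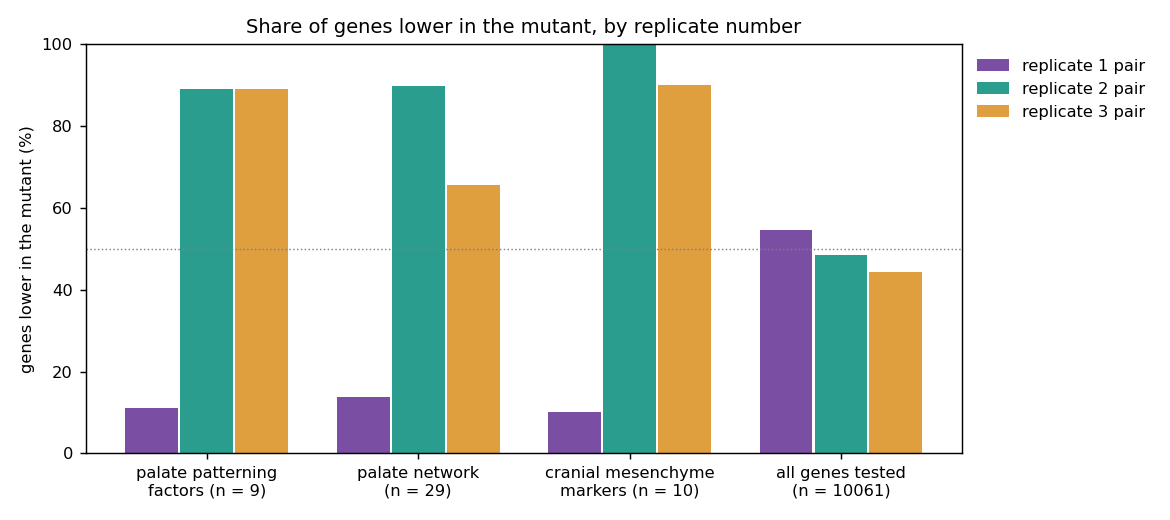
Percentage of genes with a lower value in the mutant than in the control of the same replicate number, for the 9 palate factors, 29 other genes of the palate network, 10 cranial mesenchyme markers and all genes tested, with a dotted line at 50%. In the first 3 sets the replicate 1 bar is between 10% and 13.8%, while the replicate 2 and 3 bars are between 65.5% and 100%.

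**Figure D4:**
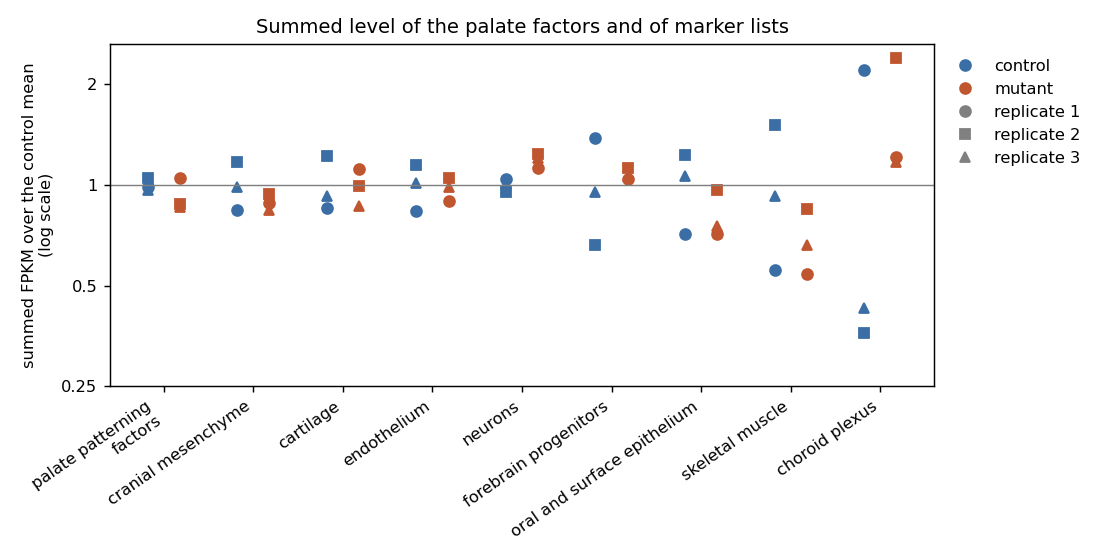
Summed FPKM of the 9 palate factors and of 8 marker lists in each sample, divided by the mean of the controls, on a log axis, with colour for the group and shape for the replicate number. The palate factors span a narrower range than most marker lists, and the neuronal markers are higher in each mutant than in each control.

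The palate factors act with signals and other factors of the shelf, and 29 genes of this network were examined. Of these, 22 passed the expression filter. None of the 29 had an unadjusted p under 0.05 in limma, where the smallest was 0.120, and the same was true of the 22 with the replicate block. The mean difference was negative for 22 and positive for 7, and the log2 fold changes lay between -0.25 and 0.081. Between the first replicates 4 of the 29 were lower in the mutant, against 26 in replicate 2 and 19 in replicate 3.

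*Pax9*, a factor of the shelf mesenchyme that acts with *Osr2*, had FPKM of 9.95, 10.1 and 9.43 in controls against 10.2, 6.73 and 7.80 in mutants, so that mutant replicates 2 and 3 were below every control. *Msx1*, an anterior factor, was at 83.4, 69.2 and 64.4 in controls against 83.4, 54.6 and 74.9 in mutants. The log2 fold changes of *Pax9* and *Msx1* were -0.24 and -0.040, and in each the groups overlapped.

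Among the signals, *Bmp4* was at 19.7, 20.8 and 22.8 FPKM in controls against 19.6, 18.1 and 21.2 in mutants. *Fgf10*, which signals from mesenchyme to epithelium, was at 3.76, 4.69 and 4.80 and at 4.91, 3.68 and 3.72 FPKM. *Shh*, made by the palatal epithelium, was at 5.001, 2.08 and 2.77 in controls against 4.50, 2.34 and 3.39 in mutants. *Tgfb3*, needed for fusion, was at 13.9, 19.6 and 15.1 and at 15.6, 15.6 and 13.1 FPKM. In all 4 the groups overlapped, with log2 fold changes of -0.100, -0.090, 0.072 and -0.12.

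Among 8 paralogs of the palate factors, 2 passed the filter and none had an unadjusted p under 0.05. *Meox1*, the paralog of *Meox2* and a factor of somite-derived and head tissue, had FPKM of 4.82, 8.83 and 7.80 in controls against 3.99, 5.12 and 5.31 in mutants. *Meox1* was the 1 paralog of the 8 that was lower in the mutant of each number, as were 12.4% of genes without the filter. Its log2 fold change of -0.46 had an unadjusted p of 0.0793 in limma. With the replicate block, limma gave *Meox1* an unadjusted p of 0.0157 and an adjusted p of 0.885. In that fit 1221 of 23063 genes, or 5.29%, had an unadjusted p under 0.05. *Barx2* was at 3.46, 4.16 and 4.67 FPKM in controls against 3.67, 3.39 and 2.87 in mutants, and its log2 fold change was -0.24. *Tbx5* and *Tbx20*, factors of heart and forelimb, were under 1 FPKM in every sample.

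For each palate factor, the tested genes with the most similar course over the 6 samples were found by the root mean square difference of centred log2(FPKM + 1) values. For *Tbx2* the list held *Msx1*, at a difference of 0.075, for *Tbx3* it held *Wnt5a*, at 0.056, and for *Meox2* it held *Tgfb3*, at 0.039. The nearest genes to *Barx1* were *Snai2* and *Rassf3*, at 0.035 and 0.042. *Tbx22* was nearest to *Tatdn3* and *Kcne3*, at 0.047 and 0.049. The spread of *Tbx22* itself over the samples, on the same measure, was 0.22. *Osr1* was nearest to *Nfatc1* and *Rap1gap*, *Osr2* to *Lgals8* and *Zfp276*, *Shox2* to *Dcp1b* and *Rab3d*, and *Mn1* to *Atg9a* and *AI597468*, at differences between 0.0080 and 0.052. The nearest genes to *Tbx2*, *Tbx3* and *Meox2* were *Tmem87b*, *Cln3* and *Sipa1l3*, at 0.063, 0.053 and 0.025. These values describe 6 samples that share the split between the first replicates and the others, and shared regulation was not tested.

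The direction of the difference was traced for each palate factor under 17 alternative fits, or 16 for *Tbx22* and *Meox2*, for which no filter was already used. *Tbx22* stayed between -0.50 and -0.30 and *Tbx3* between -0.49 and -0.18. *Osr1*, *Osr2*, *Barx1* and *Meox2* stayed below 0 in every alternative, though *Osr1* came to -0.0088, while *Mn1*, *Tbx2* and *Shox2* took both signs. At an unadjusted p under 0.05 *Tbx22* passed in 14 of its 16, all but the Y-linked covariate and the mesenchyme scaling named above. In those 14 the genes passing ran from 487 of 22713 without control replicate 2 to 1775 of 22402 in replicates 2 and 3 only. *Tbx3* and *Osr2* passed in 3 each and *Osr1* and *Barx1* in 1 each, in fits where 176 of 10061 to 1130 of 10258 genes did. All of these fits drew on the same 6 samples, so the counts are not separate findings. The adjusted p of *Tbx22* ran from 0.625 to 1.

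**Figure D5:**
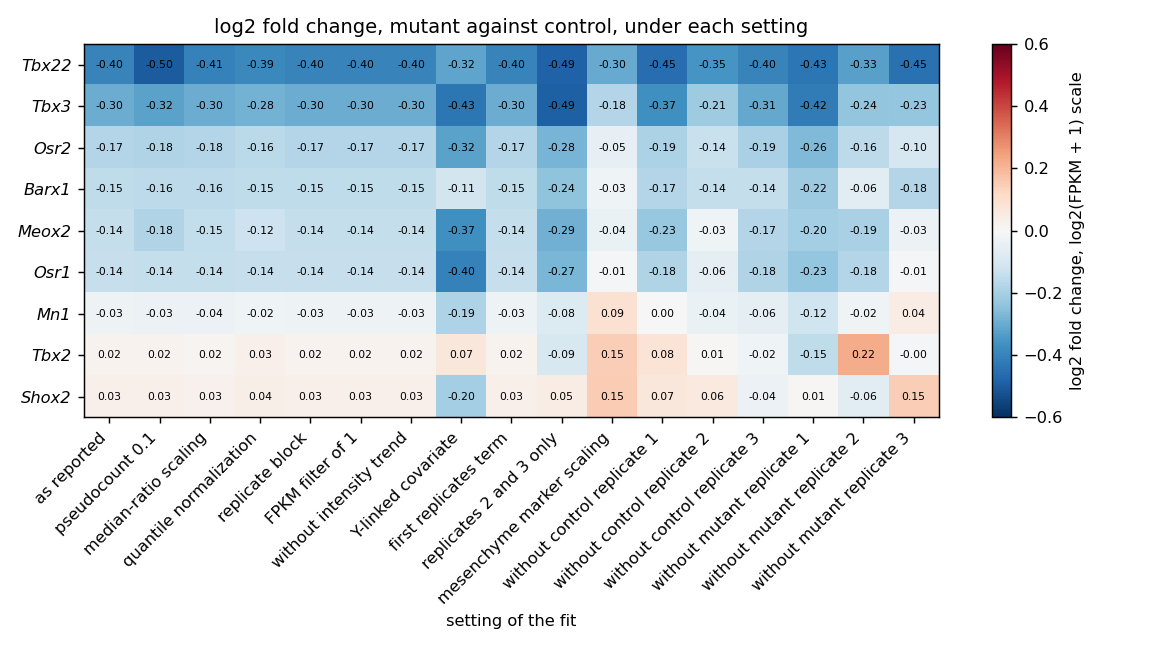
Log2 fold change of each palate factor as reported and under each alternative setting except the one with no filter, as a colour scale and as printed values on the log2(FPKM + 1) scale. The rows of *Tbx22* and *Tbx3* are negative throughout, and those of *Mn1*, *Tbx2* and *Shox2* hold both signs.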

How the data were processed

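Poly(A)+ RNA of 3 control and 3 *Rbfox2* mutant samples had been sequenced from stranded libraries and aligned to GRCm38 with STAR, and Cuffdiff is named for expression; versions of both, the annotation and the strand setting are not given in the sources used here. The authors deposited FPKM per gene and sample in 1 table for each of the 6 samples and in a joint table, between which 0 values differed. Counts, and therefore depth and counting error, are unknown. Genes were kept where FPKM exceeded 5 throughout the control group or throughout the mutant group, a filter that the methods give for Cuffdiff. Values were taken to log2(FPKM + 1) and tested between groups in limma 3.58.1 (R 4.3.3) using its intensity trend, no covariate, all 6 samples and Benjamini-Hochberg adjustment over all genes tested. *Tbx22* and *Meox2*, below the filter, were tested in the same fit on every gene above 0. The code was tested on simulated data. Exact permutation tests used Python 3.11.15 with scipy 1.17.1, and 3 samples against 3 cannot give a two-sided p below 0.10. The methods give 3 independent biological replicates for each group.

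The genes, lists and alternatives were chosen with earlier results of these data known. Genes named are the 9 factors, *Rbfox2*, *Pax3*, the 2 genes nearest in course to each factor, *Msx1*, *Pax9*, *Fgf10*, *Shh*, *Bmp4* and *Tgfb3* whatever their p, and network genes or paralogs with an unadjusted p under 0.05. 1 more network gene, to be named whatever its p, is not reported here. *Meox1*, *Barx2*, *Tbx5*, *Tbx20*, *Col1a1*, *Myf6*, *Rsrc1* and *Tbx3os1* were named after their values were seen. Across genes, which are not independent, the deviation of a control from its group mean correlated with that of the mutant of the same number. The correlations were 0.64, 0.26 and 0.51 for numbers 1, 2 and 3, and the numbers were used as pairs on that ground. The pairing comes from these values, since the labels give no shared litter or day. Control replicate 2 also correlated with mutant replicate 3 at 0.23. Control replicate 3 correlated with mutant replicate 2 at 0.40, more than control replicate 2 did. The values thus set the first replicates apart from the others and do not settle a pairing within replicates 2 and 3. Alternatives were a pseudocount of 0.1, median-ratio scaling, quantile normalization, a block for the replicate number, a filter at FPKM 1 or none, no intensity trend, 4 Y-linked genes as a covariate, a first replicates term, replicates 2 and 3 only, and each sample left out in turn. Scaling to 10 mesenchyme markers, and *Rbfox2* under settings beyond the block and single samples left out, were added after seeing the data.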

Additional observations from a re-analysis of the deposited data

How the results depend on the processing

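No palate factor had an adjusted p under 0.05 in any of the alternatives. Palate factors with an unadjusted p under 0.05 numbered 1 as reported, 2 with the Y-linked covariate, 4 in replicates 2 and 3 only, 0 with mesenchyme marker scaling and 1 to 3 with a sample left out, the highest without mutant replicate 1. In the filtered fits this p was met by 167 of 10061 genes as reported and 176 of 10061 with the Y-linked covariate. It was met by 1130 of 10258 in replicates 2 and 3 only, 154 of 10107 with mesenchyme scaling and 414 of 10148 without mutant replicate 1. The 1 as reported was *Tbx22*, which like *Meox2* was tested without the filter, where 663 of 23063 genes met this p. Without the filter it was met by 895 of 23063 with the Y-linked covariate and 601 of 23063 with mesenchyme scaling. It was met there by 1775 of 22402 in replicates 2 and 3 only and 990 of 22766 without mutant replicate 1. Palate factors with a positive difference numbered 2 as reported, 1 with the Y-linked covariate, 1 in replicates 2 and 3 only and 0 to 3 with a sample left out. Palate network genes with an unadjusted p under 0.05 numbered 0 as reported, 7 in replicates 2 and 3 only, where 11% of all genes met it, and 0 to 3 with a sample left out. Over all genes, an unadjusted p under 0.05 was met by 167 as reported, 604 with the replicate block, 304 with an FPKM filter of 1, 663 with no filter, 611 with the first replicates term, 1130 in replicates 2 and 3 only, and 78 to 690 with a sample left out, lowest without control replicate 2 and highest without control replicate 1. In the filtered fits, adjusted p-values under 0.05 numbered 0 as reported, 3 with the first replicates term and 4 in replicates 2 and 3 only. They numbered 2 with mesenchyme scaling and 0 to 5 with a sample left out, the highest without mutant replicate 3. Without the filter they numbered 26 with the Y-linked covariate, 6 without mutant replicate 3 and 0 in the other settings. The 167 genes were 71 higher and 96 lower in mutants, against 129 higher and 25 lower with mesenchyme scaling and 50 higher and 126 lower with the Y-linked covariate. *Rbfox2* kept its direction throughout, at -0.75 with the first replicates term and -0.82 in replicates 2 and 3 only, where its adjusted p in limma was 0.0296 and 0.0407, against 0.138 as reported, and between -0.79 and -0.71 with a sample left out.

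The sign turned for *Shox2* with the Y-linked covariate (-0.20) and with a sample left out (-0.064 to 0.15), for *Mn1* with mesenchyme scaling (0.092) and with a sample left out (-0.12 to 0.044), and for *Tbx2* in replicates 2 and 3 only (-0.095) and with a sample left out (-0.15 to 0.22). The cause was not tested. The replicate block changed no call of a palate factor. The Y-linked covariate rests on mutant replicate 3, the 1 mutant without Y-linked expression. FPKM carries no counts, so the precision of low genes such as *Tbx22* and *Meox2* beyond the spread between samples is unknown.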
